A study of Schizosaccharomyces pombe with 2 samples.

Results

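RNA of 2 histone chaperone mutants of fission yeast (Schizosaccharomyces pombe), asf1-1 and the hip1 deletion, was set directly against each other. Each mutant had been labelled red (Cy5) and hybridised with green-labelled (Cy3) wild-type RNA on a tiling array of its own. Here the red signal of the asf1-1 array was divided by the red signal of the hip1 deletion array, so that the dye is the same in numerator and denominator. The ratio was summarised as the median over the probes of 1 strand in windows of 1 kb. It could be formed in 4378 of 4412 tiled windows. The ratio of the green channels, wild type over wild type, could be formed in 4181 windows. It serves as the measure of how far 2 arrays differ in the channels labelled from wild-type RNA. Both colours are read from the same spots, and whether mutant signal enters the green channel was not tested. Whether the wild-type RNA of both arrays came from the same culture was not established here. If it did, green over green holds no difference between cultures, while red over red does.

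Asf1 is a chaperone that binds newly made and recycled histones H3 and H4 and hands them to other assembly factors. Hip1 is a subunit of the HIRA complex, one of the factors that receive histones from Asf1 and place them on DNA outside of replication. In fission yeast HIRA is known for holding down transcription of heterochromatic repeats and of Tf2 retrotransposons, and by its title the series asks how both chaperones bear on nucleosomes and histone deacetylation in heterochromatin. Fission yeast carries its ribosomal DNA as tandem repeats at both ends of chromosome 3.

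The asf1-1 group is a strain with the asf1-1 mutant allele of asf1, and the other group is a strain with hip1 deleted. Both were growing exponentially in rich medium (YEA) at 30 °C, as was the wild type, and ribosomal RNA was depleted from total RNA before labelling. There was 1 array per mutant, so no test could be run on any difference below, and no spread within a mutant could be had. The spread printed after ± is the SD of the log2 ratio over the probes of a window. It covers differences between probes and not between cultures. The number of clones behind each strain is not stated. The arrays carry 43993 probes of 60 bases, spaced 50 bp apart on alternating strands, in 7 blocks, of which 6 lie on chromosomes 1 to 3 and the last on a sequence numbered 4. The genome build of the printed positions is not given, and no probe is paired with a gene. Loci are therefore given by position and strand and without exon or gene annotation, and the hip1 transcript could not be used to check the label of the deletion. In the samples, which are bulk RNA, a transcript made by fewer cells and a transcript at a lower level per cell cannot be told apart.

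The mutants' channels differed between the arrays more than the wild-type channels did. After 1 scale factor per colour, the SD of the log2 ratio over the 4181 windows with both colours was 0.691 for red over red and 0.350 for green over green. RNA was at least 2-fold higher in asf1-1 in 394 of 4378 windows (9.00%) and at least 2-fold lower in 199 (4.55%). Green over green was past 2-fold in 72 of 4181 windows (1.72%), 62 of them higher (1.48%) and 10 lower (0.239%) on the asf1-1 array. These counts depend strongly on the scaling, because the red ratio falls with brightness. With a loess curve on brightness in place of the single factor, 186 windows were higher (4.25%) and 44 were lower (1.01%), and the green counts were 35 (0.837%) and 9 (0.215%). The windows of each colour were also cut into 5 equal classes by brightness in that colour, so that classes match by rank and not by signal. Set against the 99th percentile of absolute green over green in the class of the same rank, 256 windows (5.85%) were higher and 419 (9.57%) lower with 1 scale factor. With loess these were 182 (4.16%) and 101 (2.31%). Both scalings put 171 windows (3.91%) at least 2-fold higher and 18 windows (0.411%) at least 2-fold lower in asf1-1. Of the windows nearest to the threshold with 1 scale factor, the last inside it had log2 ratios of 1.0003 and -1.0005, and the first outside had 0.9965 and -0.9994.

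**Figure D1:**
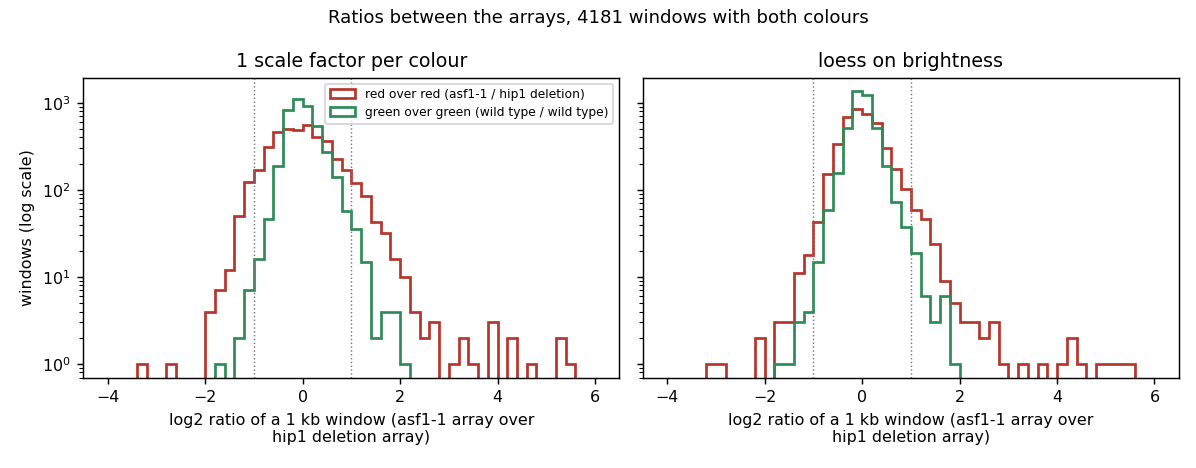
Histograms of the log2 ratio of 1 kb windows between the arrays, asf1-1 array over hip1 deletion array, with the number of windows on a log scale. Red outlines are the mutant channels and green outlines the wild-type channels of the same 4181 windows, after 1 scale factor per colour on the left and after loess on the right; dotted lines mark 2-fold. The red outline is wider than the green one in both panels (SD 0.691 against 0.350, and 0.525 against 0.297), and its highest windows lie beyond a log2 ratio of 5.

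The highest ratios of the whole array lay in the left-end block of chromosome 3, which is tiled from position 1 to 49970. Ribosomal RNA was depleted before labelling, and whether this block holds ribosomal DNA was not established here. What differences in depletion between the RNA samples contribute to its ratios was not tested. All 10 highest windows fell in this block, 8 on the plus strand and 2 on the minus strand, and every one of them stayed past 2-fold with loess. At their head was the plus-strand window from 14061 to 15020, where the red signal was 8152 in asf1-1 and 193 in hip1-deleted cells, a log2 ratio of 5.45 ± 2.00 (SD over 10 probes). Its wild-type signals were 219 and 182, a median green log2 ratio of 0.26 that varied widely between probes (SD 1.29). The median wild-type ratio was thus far smaller than the mutant one, but the wild-type channels were not close at every probe. The next window, from 13061 to 14020, had a red log2 ratio of 5.25 ± 2.49, and there the wild-type channels also differed, by 1.98 in the same direction. The window from 3061 to 4020 had a red log2 ratio of 5.23 ± 1.99 with a green one of 0.81.

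Some windows of this block were high in asf1-1 while the wild-type channel leaned the other way. From 4061 to 5020 on the plus strand the red signal was 18104 in asf1-1 and 858 in hip1-deleted cells. The red log2 ratio was 4.66 ± 0.41, with every one of the 10 probes between 3.99 and 5.16, and the green log2 ratio was -0.65. From 15061 to 16020 the red signals were 11889 and 562, a red log2 ratio of 4.32 ± 0.70 against a green one of -0.66. In both windows the median wild-type ratio had the opposite sign, though it varied between probes (SD 0.74 and 0.80), and in the window from 15061 the red ratio ranged from 2.38 to 4.70 over probes. In 3 of the 10 highest windows the green ratio was itself close to or at 2 on the log2 scale, namely 1.98 from 13061, 1.87 from 5061 and 1.96 from 16061, all on the plus strand. At those windows the array that held asf1-1 was higher in both colours, and what this contributes to the red ratio was not tested.

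The high windows on the plus strand came in 3 runs of neighbouring windows past 2-fold. The first covered 6 windows from 1061 to 7020 with a median log2 ratio of 3.79, the next covered 5 windows from 13061 to 18020 with 4.32, and the last covered 5 windows from 23061 to 28020 with 2.96. With loess the medians were 3.41, 4.57 and 2.40, and the green medians were 1.00, 1.30 and 0.98. The profile repeated along the block. In the outer part, probe signals 10900 bp apart correlated with r between 0.73 and 0.94 in each of the 4 channels and on both strands, over 140 or 141 probe pairs of 1 array. The red ratio itself repeated with the same spacing, with r = 0.86 over 118 pairs on the plus strand and r = 0.89 over 135 pairs on the minus strand. Probes in such pairs share an array and may share sequence, so these values describe the tiling and carry no test.

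At the level of single probes the difference was sharper still. From 2661 to 3320 on the plus strand, 7 neighbouring probes had a median red signal of 81055 in asf1-1 and 763 in hip1-deleted cells, a median log2 ratio of 6.38. The stretch one repeat further on, from 13561 to 14220, had 70580 and 660 over 7 probes, a median of 6.63. At these 2 stretches the green ratio was 2.24 and 2.65, so the asf1-1 array stood higher in the wild-type channel too, though by less. Both colours are read from the same spots, and whether the bright red signal enters the green one was not tested.

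The minus strand of the same block held the brightest red signals of its outer part on both arrays. Of the 25 minus-strand windows of the outer 25 kb, 18 had a mean red level above 65536, with a median signal of 150665 in asf1-1 and 292311 in hip1-deleted cells. Their median log2 ratio was -1.03 with 1 scale factor and 0.24 with loess, with a green median of -0.64, so the direction here rests on the scaling. Between these bright stretches the minus strand dipped, and the dips were shallower in asf1-1. From 14011 to 14970 the red signal was 13375 in asf1-1 and 615 in hip1-deleted cells, a log2 ratio of 3.86 ± 1.29, and from 3011 to 3970 it was 7017 and 443, a log2 ratio of 3.81 ± 1.61. The green ratios of these windows were 0.21 and 0.11. In the next windows of the same dips, from 15011 and 4011, the red ratios were smaller, 1.17 ± 1.70 and 2.27 ± 1.77, and the green ratios were -0.65 and -0.70. Farther in, from 29 kb to the end of the block, ratios were smaller: the plus-strand median was 0.33 over 21 windows and the minus-strand median 0.21 over 21 windows. A last run on the minus strand, from 46011 to 48970, had a median of 1.27 over 3 windows, with 1.29 after loess and a green median of -0.09. In its highest window, from 46011, the red ratio was 1.40 and the green ratio 1.12.

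**Figure D2:**
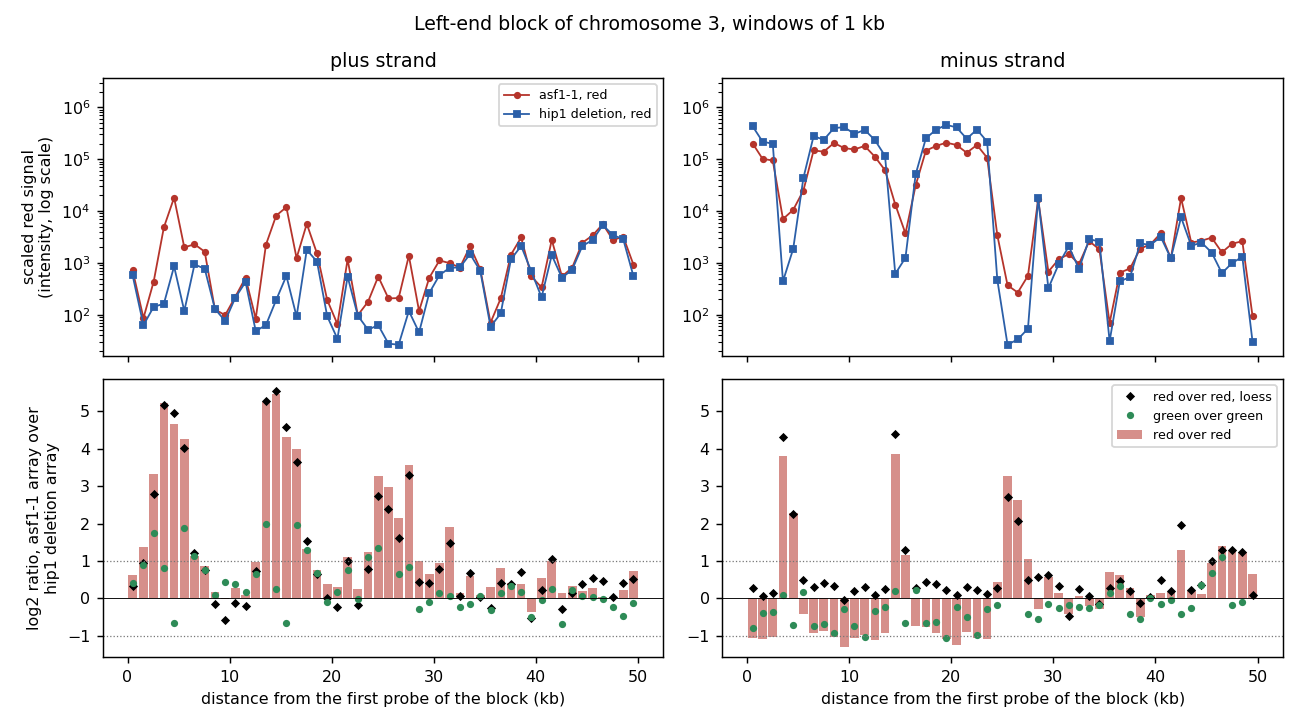
Scaled red signal of both mutants (upper panels, intensity on a log axis) and log2 ratio of the asf1-1 array over the hip1 deletion array (lower panels), by window of 1 kb along the left-end block of chromosome 3, as distance from its first probe, plus strand at left and minus strand at right. Bars are red over red with 1 scale factor, diamonds red over red with loess, and green points green over green; dotted lines mark 2-fold. The plus strand shows 3 groups of windows with ratios up to 5.45, and the bright minus-strand stretches lie near -1.03 by the scale factor and near 0.24 by loess.

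The lowest ratio of the array lay in the right-end block of chromosome 2, tiled from 4491601 to 4541560, on the plus strand. From 4529001 to 4529960 the red signal was 773 in asf1-1 and 8617 in hip1-deleted cells, a log2 ratio of -3.36 ± 0.24, with all 10 probes between -3.72 and -2.999. With loess it was -3.16, and the green log2 ratio was -0.56. The neighbouring window from 4530001 had 348 and 2300, a log2 ratio of -2.74 ± 0.22 over 9 probes, and the green ratio was -0.34. From 4531001 the ratio was -1.87 ± 0.66, and from 4532001 it was -1.61 ± 0.21, both over 10 probes. These windows belong to a run of 6 from 4528001 to 4533960 with a median log2 ratio of -1.74, or -1.67 with loess, beside a green median of -0.47. It was the longest run of lower windows and the only one of 11 runs of at least 3 lower windows whose median stayed past 2-fold with loess.

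With 1 scale factor, a stretch of ratios below 0 began at 4528001 on the plus strand and had no counterpart on the minus strand. In the 37 plus-strand windows before 4528001, 35 were above 0 and the median log2 ratio was 0.79 (0.48 with loess). The last 6 of them, from 4522001 to 4527960, had a median of only 0.18, and with loess it was already below 0, at -0.24. From 4528001 to the end of the block, all 14 plus-strand windows were below 0 with a median of -1.11 (-1.47 with loess), and 9 of them were past 2-fold. The green median over those 14 windows was -0.18. On the minus strand across the same stretch, 13 of 14 windows were above 0, with a median of 0.67. The wild-type channels also differed at the outermost minus-strand windows, where green over green lay between 1.03 and 2.01 from 4538051 to 4541510, against red ratios of 0.30 to 0.72. Past the bright part of the plus-strand stretch the asf1-1 signal came close to background. From 4535001 to 4535960 only 3 of 9 probes were well above background in asf1-1 against 9 of 9 in the hip1 deletion. RNA was 3.11-fold lower in asf1-1 with 1 scale factor and 4.59-fold lower with loess. Over the processing settings its log2 ratio ranged from -2.57 to -0.72. On the minus strand, the window from 4520051 to 4521010 was the only minus-strand window among the 10 lowest of the array, with red signals of 1095 and 2624 and a log2 ratio of -1.73 ± 0.82 over 9 probes. The highest window of the block was on the plus strand from 4497001 to 4497960. There 3 of 10 probes were well above background in the hip1 deletion and 10 of 10 in asf1-1. RNA was 5.61-fold higher in asf1-1 with 1 scale factor and 3.89-fold with loess, both resting on a dim hip1 deletion signal.

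**Figure D3:**
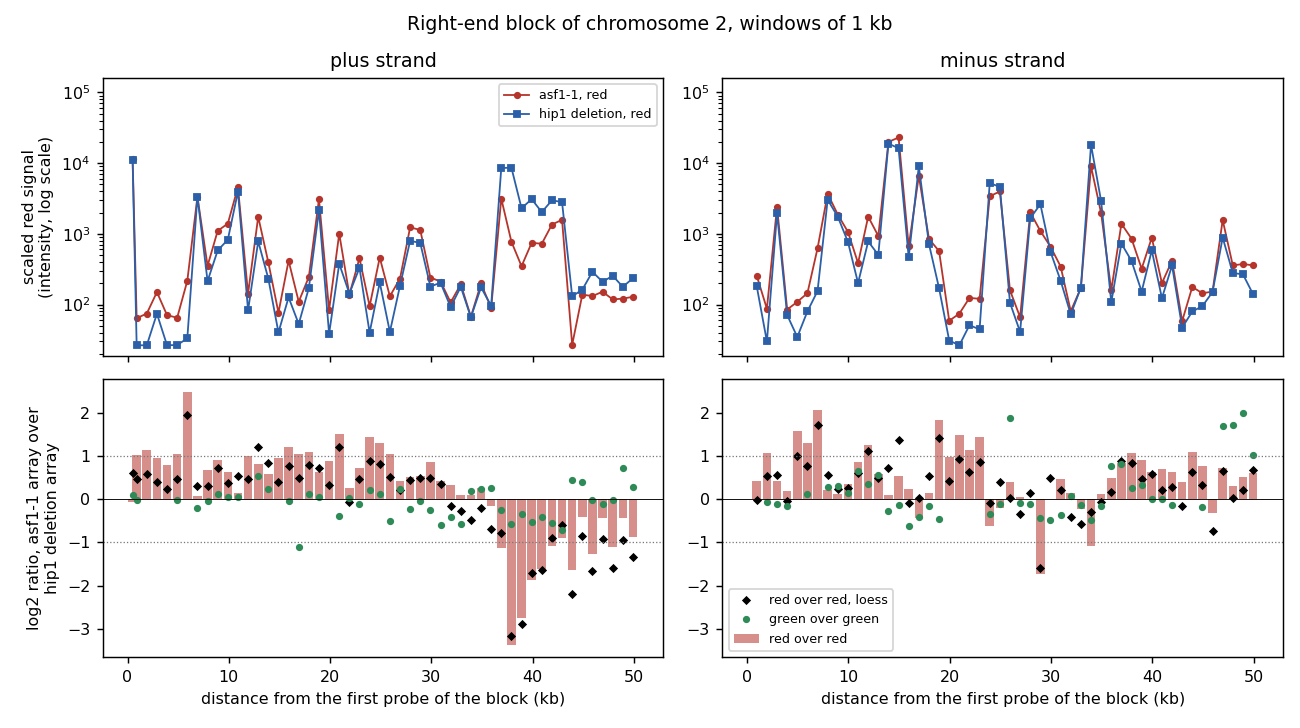
Scaled red signal of both mutants (upper panels, intensity on a log axis) and log2 ratio of the asf1-1 array over the hip1 deletion array (lower panels), by window of 1 kb along the right-end block of chromosome 2, as distance from its first probe. Symbols are those of the plot of the chromosome 3 block. From 36 kb onward all 14 plus-strand windows lie below 0, the lowest at -3.36, while 13 of 14 minus-strand windows lie above 0.

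The long block of chromosome 2, from 1000011 to 3049820, held 4072 of the windows. In its 10 highest windows the red signal of the hip1 deletion was 34.2 to 480.5, beside a window median of 875 over the block. They were picked by a ratio that divides by this signal and falls with brightness, so the choice itself favours dim windows. In asf1-1 the red signals of the same windows ranged from 195 to 3432, on both sides of the window median of 939. The strongest was a pair on the plus strand. From 1724061 to 1725020 the red signal was 1490 in asf1-1 and 172 in hip1-deleted cells, a log2 ratio of 3.14 ± 0.30 over 9 probes, and from 1725061 to 1726020 it was 3432 and 480, a log2 ratio of 2.69 ± 0.20 over 9 probes. With loess the values were 2.89 and 2.66. The green ratios were 0.95 and 0.97, so the wild-type channel of the asf1-1 array was also close to 2-fold higher here. The window after the pair, from 1726061, had 0.57 ± 1.47. In the window before it, from 1723061, most probes of the hip1 deletion were not well above background. Its log2 ratio of 0.82 is a lower bound with 1 scale factor, and it was 0.26 with loess. The one before that, from 1722061, had 1.22 ± 0.67 (0.71 with loess). On the opposite strand the windows from 1724011 and 1725011 had log2 ratios of -0.40 and -0.31.

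The minus-strand window from 1216011 to 1216970 had red signals of 1486 and 177 and a log2 ratio of 2.71 ± 0.59 over 10 probes, and its neighbour from 1215011 had 3679 and 1037. With loess the log2 ratios were 2.51 and 2.04. The green ratios were 0.46 and 0.52. The minus-strand window from 2633011 to 2633970 had 2246 and 259, a log2 ratio of 2.66 ± 1.03 over 9 probes, beside a green ratio of 0.28. At both loci the wild-type channels differed by far less than the mutant channels. The other windows among the 10 highest of the block had log2 ratios from 2.23 to 2.59. All 10 stayed past 2-fold with loess, between 1.72 and 2.89. Green could be measured in 8 of them, with ratios from 0.28 to 1.08, always on the same side as red. For 1 of them, the plus-strand window from 2195061, most probes of the hip1 deletion were not well above background. There RNA was 4.79-fold higher in asf1-1 with 1 scale factor and 3.29-fold with loess. On the opposite strand none of the 10 positions was past 2-fold in either direction, with log2 ratios between -0.96 and 0.19.

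A cluster of higher windows on the plus strand lay between 2853061 and 2892020. It held runs of 3 windows from 2853061 to 2856020 with a median of 1.93, of 4 from 2859061 to 2863020 with 2.19, and of 4 from 2888061 to 2892020 with 1.58. With loess the medians were 1.46, 1.77 and 1.19. The green medians were 0.98, 0.57 and 0.13, so in the first of these runs the wild-type channels were also close to 2-fold apart. The 50 kb bin from 2850001 to 2900000 held the most higher windows of the 41 bins of the long block, 16 of 100, where the bins ranged from 2 to 16. The longest runs of the block each held 6 windows. The one on the plus strand from 1027061 to 1033020 had a median of 1.56 in red and 1.35 in green, so the arrays differed there nearly as much in the wild-type channels. The one on the minus strand from 1355011 to 1360970 had 1.12 in red and 0.51 in green.

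At the locus of the lowest window of the long block the strands differed in opposite directions. On the minus strand from 1950011 to 1952970 a run of 3 windows was higher in asf1-1. Their red signals were 27390, 17721 and 7221 in asf1-1 and 10226, 5049 and 2028 in hip1-deleted cells. The log2 ratios were 1.53, 1.74 and 1.69, and with loess they were 2.27, 2.35 and 2.09. On the plus strand the windows from 1950061 and 1951061 were lower, with log2 ratios of -1.87 ± 0.61 and -1.15 ± 0.12 and red signals of 165 and 636 in asf1-1 against 614 and 1419 in the hip1 deletion. The window from 1950061 was the lowest of the long block with either scaling, at -2.19 with loess. The green ratios shared the signs, 0.42, 0.69 and 0.98 on the minus strand and -1.26 and -0.90 on the plus strand. The arrays thus differed here in the wild-type channels as well, in the same direction on each strand, and the part this has in the red ratios was not tested. Over the array, strands past 2-fold in opposite directions were found in 47 of 2182 window pairs with 1 scale factor and in 6 with loess. Both strands were higher in 28 pairs, 7 of them in the left-end block of chromosome 3, and both were lower in 1, against 9 and 0 pairs with loess.

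**Figure D4:**
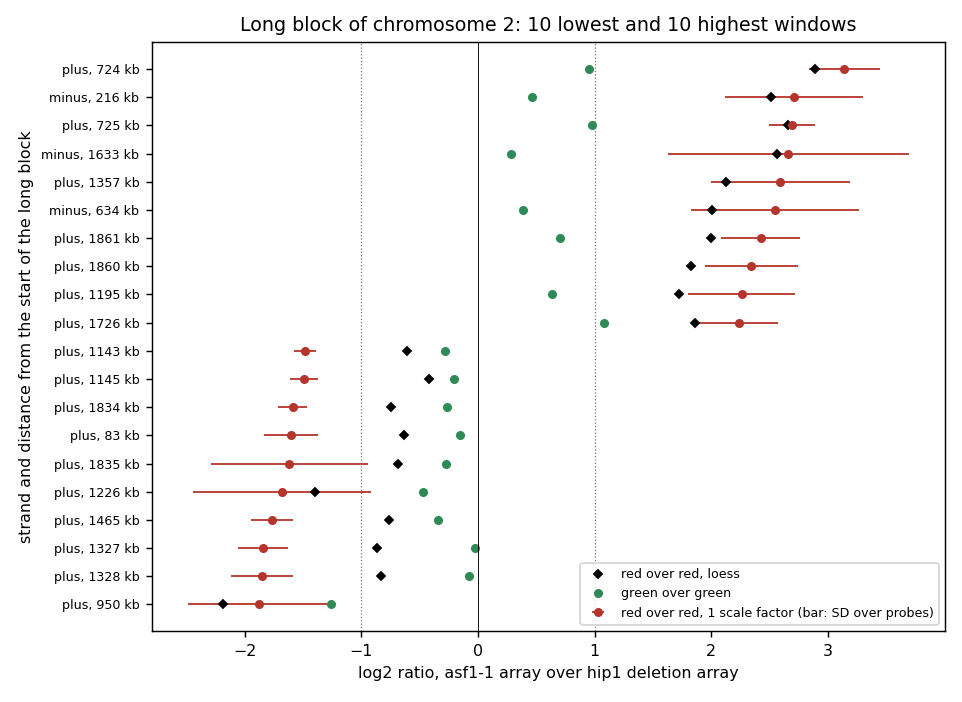
Log2 ratio of the asf1-1 array over the hip1 deletion array in the 10 lowest and 10 highest windows of the long block of chromosome 2, named by strand and distance from the start of the block. Red points are red over red with 1 scale factor and bars their SD over probes, black diamonds red over red with loess, and green points green over green; dotted lines mark 2-fold. The 10 highest windows stay beyond 1 with loess, while 8 of the 10 lowest move to between -0.87 and -0.42.

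Most of the 10 lowest windows of the long block were bright in the hip1 deletion, which the choice by this ratio also favours. Of the 10, 8 had a red signal above 10000 in the hip1 deletion, and with loess only 2 of the 10 stayed past 2-fold, the window from 1950061 and the plus-strand window from 2226061 to 2227020. The latter had red signals of 457 and 1402 and a log2 ratio of -1.68 ± 0.76 over 10 probes, which was -1.39 with loess, beside a green ratio of -0.47. The plus-strand windows from 2327061 and 2328061 were among the bright ones. Their red signals were 23348 and 30704 in asf1-1 and 90018 and 110170 in hip1-deleted cells, with log2 ratios of -1.84 ± 0.22 and -1.85 ± 0.26. The green ratios were -0.03 and -0.08, so the wild-type channels were level, but with loess the red ratios were -0.87 and -0.83. Of the 11 runs of at least 3 lower windows, 8 lay in the long block, and none of those 8 had a median past 2-fold with loess.

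The brightness behind this can be read from the probes. Before scaling, the median red log2 ratio fell from 1.59 in the dimmest of 10 equal classes of probes to 0.24 in the brightest, and the green one fell from 0.55 to -0.02. The red channel of the asf1-1 array was brighter in general, with a median probe signal of 1674 against 693.5, and its negative control spots had a median of 12 against 7.5. No spot was saturated. Over 5 equal classes of windows from dim to bright in red, the higher windows numbered 215, 121, 35, 16 and 7, and the lower windows 5, 5, 10, 13 and 166. Grouped instead by the wild-type channels, which the red ratio does not use, 22.6% of the windows in the dimmest of 5 classes and 0.359% in the brightest were higher, while 0.239% and 19.7% were lower. With loess the corresponding shares were 9.08% and 0.478% higher and 1.67% and 0.120% lower. Among the 197 windows where wild-type RNA could not be measured, 34.0% were higher with 1 scale factor and 10.7% with loess, and 0% and 2.54% were lower. Green over green, cut into classes by its own brightness, also had more higher windows among dim ones. With 1 scale factor it had 26 higher of 837 in the dimmest class and 0 of 836 in the brightest, with 1 and 2 lower. Windows that were dim or not measurable in wild type were therefore called higher more often under both of these scalings. Of the 2, only the single scale factor gave more lower windows among bright ones. The filter can add to this, because 1 red channel well above background was enough for a probe to count. In red, 93.9% of probes passed on the asf1-1 array and 88.8% on the other array. Over all windows, 368 were higher and 210 lower with both channels of a colour required, and 341 and 181 without the filter. With all 4 channels required these were 246 and 220. What the filter contributes to the shares by wild-type class was not tested. The trend with brightness may be a difference in RNA between the mutants or in labelling, hybridisation or scanning of the arrays. These cannot be told apart with 1 array per mutant. Per the file headers, both arrays lay on 1 slide.

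**Figure D5:**
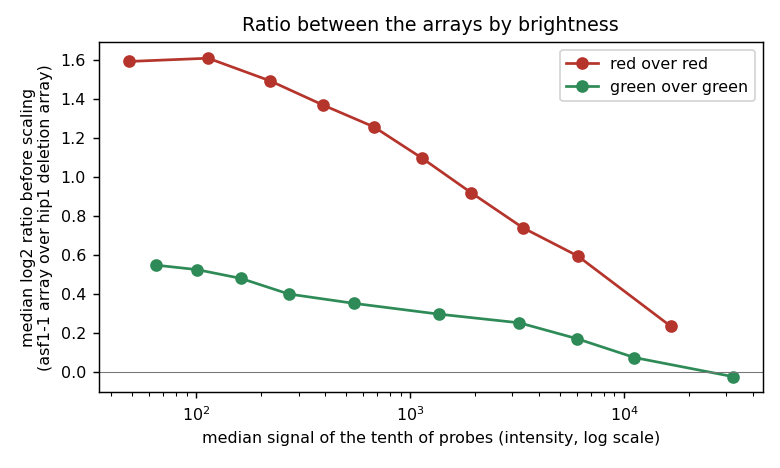
Median log2 ratio of the asf1-1 array over the hip1 deletion array before scaling (vertical axis) in 10 equal classes of probes ordered by brightness, against the median signal of the class (intensity, log axis), for the red and the green channels. Red falls from 1.59 to 0.24 and green from 0.55 to -0.02.

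The strands of a locus followed the same trend. In 1776 windows the wild-type signal of the strands differed by at least 2-fold. The dimmer strand had a median red log2 ratio of 0.33 and the brighter strand one of -0.38, and the dimmer strand had the higher ratio in 82.9% of them. In the wild-type channels the same medians were 0.13 and -0.14, with the dimmer strand higher in 74.2%. With loess the red medians were 0.09 and -0.08, and the share was 62.0%. Most of the difference between strands therefore went with brightness, and a smaller one of the same sign was present after loess.

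The loci that stood highest over wild type in both mutants in earlier results of these data were lower in asf1-1 with 1 scale factor and close to 0 with loess. That choice drew on the same red channels, so closeness of the mutants there is no independent result. On the minus strand from 1814011 to 1818970, the red signals were 80647 in asf1-1 and 163320 without hip1 as medians of 5 windows, a median log2 ratio of -1.02. With loess it was 0.12, and the green median with 1 scale factor was -0.80. On the plus strand from 1966061 to 1972020, the medians over 6 windows were 82556 and 159418, a log2 ratio of -0.93, which was 0.12 with loess. The green median there was -0.75 with 1 scale factor. The minus-strand window from 2573011 to 2573970 had 14387 and 25514, a log2 ratio of -0.82 ± 0.22, which was 0.00 with loess beside a green ratio of -0.07. With 1 scale factor, the wild-type channels at the larger loci differed by nearly as much as the mutant channels and in the same direction. With loess on both colours this no longer held. Green ratios of single windows were then -0.97 to -0.56 at the minus-strand locus and -0.93 to -0.63 at the plus-strand locus, beside the red medians of 0.12.

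Among the small blocks, the one on chromosome 3 from 1724400 to 1727359 stood out on the plus strand. Its 4 plus-strand windows had a median log2 ratio of 1.07 (1.25 with loess) beside a green median of 0.15, with 1.60 ± 0.35 over 6 probes and 1.33 ± 0.32 over 10 probes in the first windows. Its 4 minus-strand windows had a median of 0.58. The other chromosome 3 block, from 1838900, had a median of -0.17 on the plus strand and 0.38 on the minus strand over 2 windows each. In the chromosome 1 block all 6 plus-strand windows were below 0, with a median of -0.55 (-0.42 with loess) and a green median of -0.15, and the 5 minus-strand windows had a median of -0.06. On the sequence numbered 4, 7 of 82 windows were higher and 1 was lower, shares of 8.54% and 1.22% beside 9.00% and 4.55% over all windows. In the long block the 41 bins of 50 kb, with strands pooled, had medians between -0.19 and 0.31 with the scale factor. With loess these lay between -0.16 and 0.09. The bin at 0.31, from 1600001, had a green median of 0.30. By strand, bin medians reached 0.43 on the plus strand from 1850001 and -0.36 on the plus strand from 2250001.

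Across the array, higher windows formed 240 runs, of which 142 were lone windows and 36 held at least 3 windows. Of those 36 runs, 27 lay in the long block, 5 in the left-end block of chromosome 3 and 4 in the right-end block of chromosome 2. In 20 of them the median stayed past 2-fold with loess, and in 5 the green median was also past 2-fold. The red and green ratios of a window went together, with Pearson's r of 0.60 over 4181 windows that share the arrays, and 0.38 with loess. Of 327 higher windows in which green was measured, 39 were also at least 2-fold higher in green and 175 had a green log2 ratio within 0.5 of 0. Of the 199 lower windows, 5 were also at least 2-fold lower in green and 175 were within 0.5 of 0. Over all 4181 windows with green, 62 (1.48%) were at least 2-fold higher in green and 10 (0.239%) at least 2-fold lower. The share of all windows within 0.5 of 0 was not worked out, so the counts within 0.5 have no reference.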

How the data were processed

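The authors' deposited intensity of each spot is a raw scanner reading, extracted with Agilent Feature Extraction 10.1.1.1 per the file headers. The processed intensity was background-subtracted and dye-normalized by the authors, per the file headers, and served as an alternative. Local background medians were subtracted from signal medians. Control spots (1227) and 850 outlier probes were left out. One factor per colour set the median log2 ratio over all probes to 0 (2.08-fold in red, 1.23-fold in green), and the alternative loess had a span of 0.3. A channel below the lowest signal called well above background was set to it. Spots with an outlying local background were left out when that floor was sought. A probe counted if 1 or both of the compared channels were called well above background (40583 red, 35050 green), and a window needed 3 probes.

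The 10 highest and 10 lowest windows, overall and in the long block, were named among those with at least 5 probes and 80% of probes on the window's side. Runs of at least 3 windows, the loci leading both mutants and all blocks were named too. A window is called dim on an array when over 50% of its probes are not well above background there, and its fold is then a bound. Other loci, the repeat spacing, the cluster from 2853061 and the stretch from 4528001 were chosen after their values were seen. Members and lists were chosen with earlier results of these data known. The steps were tested on simulated data. Python 3.11.15, numpy 2.4.6, pandas 2.3.3, statsmodels 0.14.6, R 4.3.3 and limma 3.58.1 were used.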

Additional observations from a re-analysis of the deposited data

How the results depend on the processing

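No paired analysis was possible because there was only 1 array per mutant, and no array could be left out. The counts of windows past 2-fold depended on the processing more than any other result: the main values were 394 higher, 199 lower and 72 in green. Normexp with an offset of 50 gave 220, 106 and 30, quantile normalization 179, 48 and 41, and loess 186, 44 and 44. The scanner's processed signal gave 88 lower and 112 in green, and the mean over probes 125 lower. Without a filter on dim probes green gave 46, and with probes above background in all 4 channels 246 windows were higher. Windows of 2 kb gave 150, 74 and 21, a threshold of 1.5-fold gave 872, 714 and 354, and red over red less green over green gave 128 and 76. Higher windows were 66.4% of those past 2-fold in the main setting, 80.9% with loess, 78.9% with quantile normalization, 81.0% with the processed signal and 52.8% with probes above background in all 4 channels.

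Medians of blocks moved by over 0.25 in these cases. The left-end block of chromosome 3 had 0.21 on the minus strand with quantile normalization, 0.30 with loess and -0.44 with probes above background in all 4 channels, and 0.35 on the plus strand after subtracting green over green. The same subtraction gave -0.32 on the minus strand of chromosome 1, 0.21 and 0.23 on the minus and plus strands of the right-end block of chromosome 2, and -0.52 on the plus strand from 1838900. With all 4 channels above background, that right-end block had 0.089 on the plus strand and the block from 1724400 had 1.33 on the plus strand, also 1.33 with odd-numbered probes. The sequence numbered 4 had -0.091 on the minus strand with loess, -0.091 without the filter and -0.039 with all 4 channels. The dimmer strand's median was 0.067 and the brighter strand's -0.12 with quantile normalization and -0.082 with loess, and their difference was 0.20 with quantile normalization, 0.20 with loess and 0.41 after subtracting green over green.

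The sign of some block medians changed too, as for the minus strands of the left-end block of chromosome 3 and of the sequence numbered 4, whose main values were -0.068 and 0.23. Among named windows the sign changed only at the loci that lead both mutants, and a window past 2-fold in the main setting counts here as reversed. With quantile normalization and loess, the minus-strand windows from 1814011, 1815011, 1817011 and 1818011 had 0.078 and 0.12, 0.066 and 0.13, 0.054 and 0.12, and 0.020 and 0.068, and the plus-strand windows from 1967061 and 1970061 had 0.035 and 0.11, and 0.10 and 0.14. After subtracting green over green, the windows from 1814011 and 1818011 had 0.017 and 0.020. The cause of these changes was not tested. Across named windows 495 values stayed within the SD over probes, 94 moved by more and 14 reversed. The 94 include 8 sign changes, to between 0.063 and 0.24, in 4 windows of the same loci that were below 2-fold in the main setting. A floor that includes spots with an outlying local background was chosen after seeing the data and gave 432 higher and 199 lower windows. Dim signals limit some ratios: of the 394 higher windows, 36 were dim in the hip1 deletion and are called bounds.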
